A study of Mus musculus with 6 samples.

Results

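Muscle miRNAs, the small RNAs made in striated and cardiac muscle, were measured in lung RNA of saline and bleomycin (BLM) mice. The 6 probes mmu-miR-1a-3p, mmu-miR-133a-3p, mmu-miR-133b-3p, mmu-miR-206-3p, mmu-miR-208b-3p and mmu-miR-499-5p were taken by name, and all 6 were on the array, among 1963 probes for mature mouse miRNAs. RNA came from whole lungs of 3 WT mice of strain C57BL/6 given saline and 3 WT-BLM mice of the same strain given BLM at 1.5 U/kg into the trachea. BLM is a cytotoxic cancer drug that damages lung tissue and serves as a mouse model of fibrosis. The lungs were taken at day 21, each mouse was hybridized to 1 one-dye array, and the mice were young adult littermates without a transgene. The sources used here do not say how the lungs were trimmed from adjoining tissue. In bulk tissue RNA, fewer cells of a type and less RNA per cell cannot be told apart.

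In skeletal and cardiac muscle, miR-1 and miR-133 are processed from shared transcripts and are among the most abundant miRNAs. They act in opposite ways on muscle precursors, with miR-1 favouring differentiation and miR-133 favouring proliferation. Skeletal muscle also makes miR-206, a relative of miR-1 that is scarce in the heart. Instead, the heart makes miR-208a, miR-208b and miR-499, which are carried inside genes for myosin heavy chains, and slow skeletal fibres make miR-208b and miR-499 too. The lung has no skeletal muscle of its own, but in mice a sleeve of heart muscle runs along the pulmonary veins into the lung, and the oesophagus and the chest wall next to it hold striated muscle.

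The sequences are shown because they sort the members into seed families and tell which probes could bind one another's miRNAs. Capitals mark the seed, bases 2 to 8 from the 5′ end, which pairs with target transcripts. Each sequence below is the target sequence in the array files and was identical to the mature miRNA of RefSeq (GRCm38.p6).
miR-206-3p: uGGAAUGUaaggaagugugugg
miR-133b-3p: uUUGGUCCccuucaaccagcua
miR-133b-5p: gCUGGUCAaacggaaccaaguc
miR-208b-3p: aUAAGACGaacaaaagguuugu
miR-208a-3p: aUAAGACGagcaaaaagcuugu
miR-499-5p: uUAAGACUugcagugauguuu
The seed of miR-206-3p, GGAAUGU, was also that of miR-1a-3p, and these members differed at 4 of 22 positions. The seed of miR-133b-3p, UUGGUCC, was also that of miR-133a-3p, and only 1 of 22 positions differed. Probes that differ by 1 base can bind each other's miRNA, so the values of miR-133a-3p and miR-133b-3p may not be independent. The seeds of miR-208b-3p and miR-499-5p shared bases 2 to 7 and differed at base 8. The probe for miR-208a-3p, which is no member but shares the whole seed of miR-208b-3p, differed from it by A10G, G16A and U18C, where positions count from 1 at the 5′ end and the base of miR-208b-3p comes first.

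By the sequence match, miR-206-3p lies at chr1:20679055-20679076 and miR-133b-3p at chr1:20682834-20682855, both on the plus strand of GRCm38.p6 and inside the span of the long non-coding RNA gene Lincmd1. Their genes are 3686 bases apart with no other annotated gene between them. The position of miR-208b-3p is chr14:54975710-54975731 on the minus strand, within the span of Myh7, a myosin heavy chain gene of heart and slow muscle. The position of miR-499-5p is chr2:155622893-155622913 on the plus strand, within the span of Myh7b, another myosin heavy chain gene. Whether these positions are exonic or intronic was not determined here.

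Signal was judged against 800 empty spots on each array. The limit of detection was the median of these spots plus 3 of their SDs, and it was compared with the mean of a probe's 2 spots. Testing covered the 275 probes that passed this limit in 3 or more mice. This limit was 24.04 to 54.4 above the empty spots on 4 arrays, but 178 for WT mouse 3 and 136 for WT-BLM mouse 1. The median signal of the tested probes was 129 above the empty spots for WT mouse 3 and 224 to 282 for the other mice. Thus the array of WT mouse 3 was both dimmer and noisier than the rest. Lung markers were present, with all 8 miRNAs of a list for epithelium and both miRNAs of a list for endothelium among the tested probes. With 3 mice in each group, 0.10 is the smallest two-sided p that an exact permutation test can reach.

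Of the 6 muscle miRNAs, 3 passed the detection filter, namely miR-1a-3p on 6 arrays and miR-133a-3p and miR-133b-3p on 5 arrays each. The probe for miR-206-3p was detected in WT mouse 2 only, that for miR-208b-3p in WT-BLM mice 2 and 3, and that for miR-499-5p in no mouse. The tested miR-1 and miR-133 varied more among the saline lungs than all but a few of the tested miRNAs, and the highest level of each was in WT mouse 2. The lowest was in WT mouse 3, where neither miR-133 probe was detected.

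**Figure D1:**
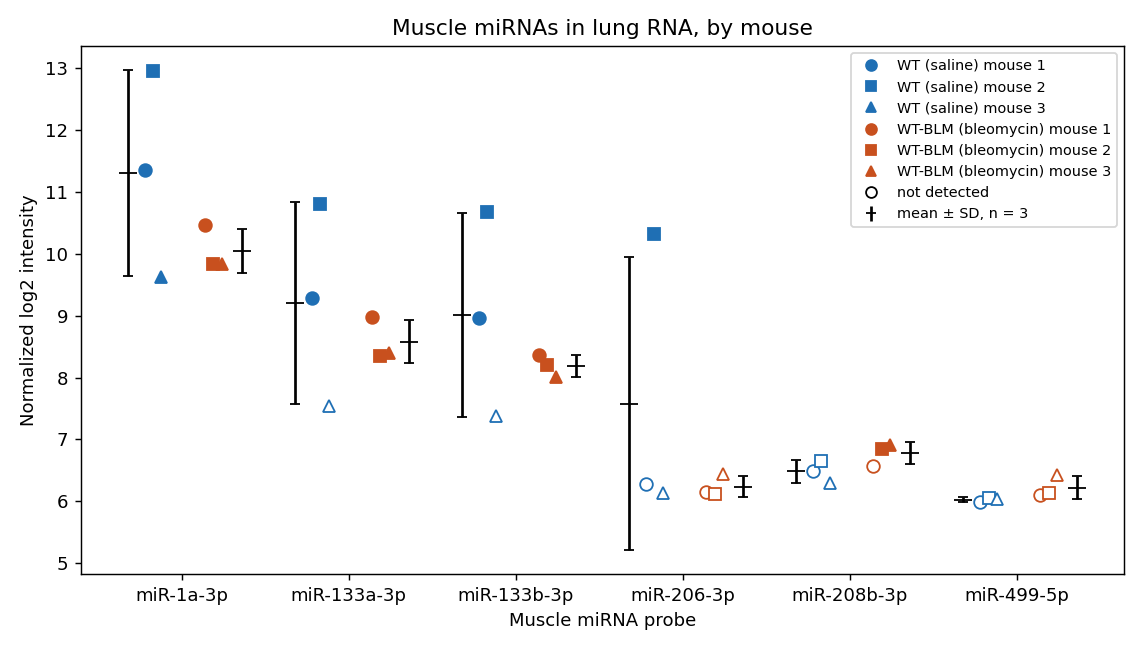
Normalized log2 intensity of the 6 muscle miRNA probes (y axis) in each of 3 WT (blue) and 3 WT-BLM (orange) mice, with open symbols for arrays on which the probe was not detected and bars for the mean ± SD of n = 3 mice. WT mouse 2 (blue square) is at the top for miR-1a-3p, miR-133a-3p, miR-133b-3p and miR-206-3p, and the miR-208b-3p and miR-499-5p probes lie between 5.99 and 6.90 in all mice.

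The level of miR-1a-3p, the main miRNA of differentiated muscle, was 11.35, 12.96 and 9.63 on the normalized log2 intensity scale in WT mice 1, 2 and 3. In the WT-BLM mice it was 10.46, 9.84 and 9.84. WT mice 1 and 2 were above, and WT mouse 3 below, every WT-BLM mouse, so that the groups overlapped. Among the WT mice the highest level was 10.02-fold the lowest, whereas among the WT-BLM mice it was 1.53-fold the lowest. The mean was 11.31 ± 1.66 (SD, n = 3) in WT and 10.05 ± 0.36 in WT-BLM lungs. This is a difference of -1.26 on the log2 scale (standard error 0.75, 95% interval -3.01 to 0.49), with an adjusted p of 1 in limma and p = 0.40 in the exact two-sided permutation test.

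For miR-133a-3p, which restrains differentiation of muscle precursors, the log2 intensity was 9.29, 10.81 and 7.54 in the WT mice, against 8.98, 8.36 and 8.40 in the WT-BLM mice. Again WT mice 1 and 2 were above, and WT mouse 3 below, every WT-BLM mouse. The mean was 9.21 ± 1.63 (SD, n = 3) against 8.58 ± 0.35, a difference of -0.63 (standard error 0.73, 95% interval -2.35 to 1.09, adjusted p = 1 in limma). The probe was not detected in WT mouse 3, where 1 of its spots stood at 328 and the other at -14.9 relative to the empty spots.

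For miR-133b-3p, the partner of miR-206 on its transcript, the log2 intensity was 8.96, 10.69 and 7.38 in the WT mice, against 8.36, 8.21 and 8.01 in the WT-BLM mice. The order of the mice was as for miR-133a-3p in the WT group. The mean was 9.01 ± 1.65 (SD, n = 3) against 8.19 ± 0.18, a difference of -0.82 (standard error 0.73, 95% interval -2.53 to 0.90, adjusted p = 1 in limma). In WT mouse 3 the probe was not detected, and its spots stood at -2.08 and 206.1 above the empty spots.

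**Figure D2:**
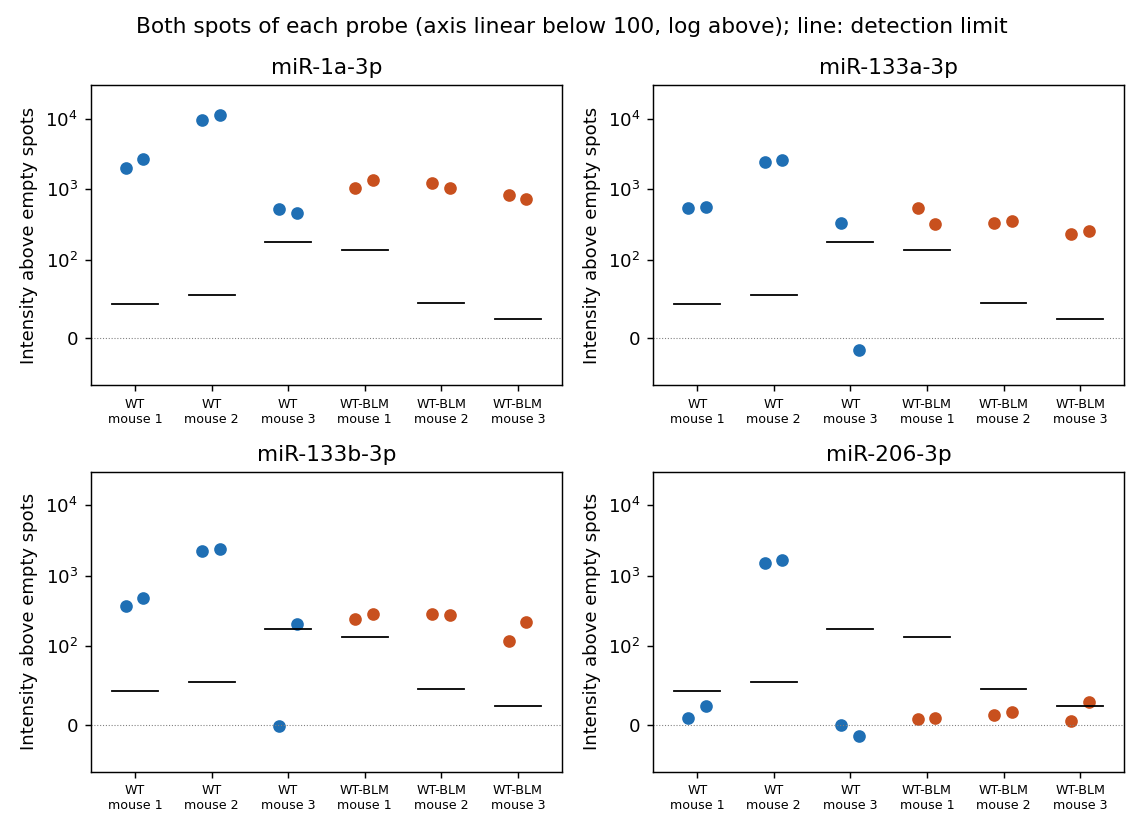
Intensity above the median of the empty spots (y axis, linear below 100 and logarithmic above) for both spots of 4 muscle miRNA probes on each array (x axis), with WT mice in blue, WT-BLM mice in orange and a line at each array's detection limit. Both miR-206-3p spots of WT mouse 2 stand at 1529 and 1670, and the miR-133a-3p and miR-133b-3p spots of WT mouse 3 disagree.

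None of the 3 muscle miRNAs tested had an adjusted p under 0.05 in limma, and 0 of the 275 miRNAs tested (0%) had one. At an unadjusted p under 0.05 there were 0 of the 3, against 5 of the 275 (1.82%). All 3 had a lower mean in WT-BLM lungs, where 120 of the 275 (43.6%) had, and the 3 are not independent of each other. For all 3 the groups overlapped, as for all but 13 of the 275 (4.73% without overlap). The median difference of the 3 was -0.82, and that of all 275 was 0.04. The differences were thus within the spread between mice, and the 95% intervals above include a several-fold lower level as well as no change.

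The size of the difference, and for miR-133a-3p and miR-133b-3p its sign, changed with single saline mice. Without WT mouse 2 the difference shrank to -0.43 for miR-1a-3p, which kept its sign under every omission, and turned to 0.16 for miR-133a-3p and 0.025 for miR-133b-3p. Without WT mouse 3 it grew to -2.11, -1.49 and -1.67, and the groups no longer overlapped, as for 59 of the 275 tested miRNAs (21.5%) with 2 WT mice left. All 3 then had an unadjusted p under 0.05 and an adjusted p of 0.39 in limma, where 20 of the 275 (7.27%) had an unadjusted p under 0.05.

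**Figure D3:**
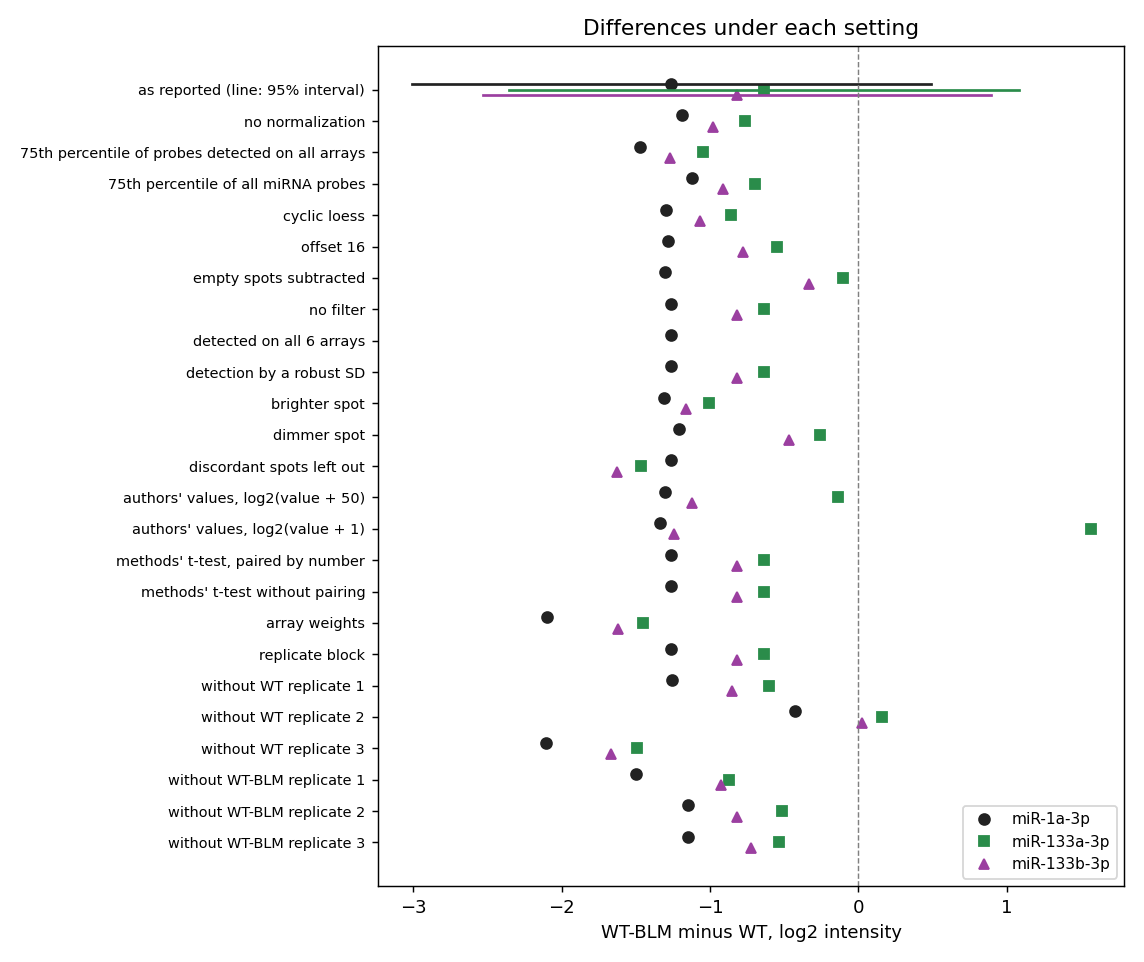
Difference of WT-BLM minus WT in log2 intensity (x axis) for the 3 muscle miRNAs tested, under each processing setting (y axis), with the 95% interval of limma drawn as a line for the values as reported. Without WT replicate 2 the points lie at -0.43, 0.16 and 0.025, without WT replicate 3 at -2.11, -1.49 and -1.67.

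The spread among saline lungs was among the widest on these arrays. The SD over the 3 WT mice was 1.66, 1.63 and 1.65 for miR-1a-3p, miR-133a-3p and miR-133b-3p, against a median of 0.39 over the 275 tested miRNAs, and ranked 3, 5 and 4 among them from the highest. Over the WT-BLM mice the SDs were 0.36, 0.35 and 0.18, against a median of 0.24, with ranks of 81, 84 and 193. The saline spread had its upper end in WT mouse 2 and its lower end in WT mouse 3, the mouse of the dim array. There miR-133a-3p and miR-133b-3p were not detected, so their SDs include a value that was not above the limit. Over the 6 mice the 3 miRNAs moved together, with Pearson's r of 0.97 to 0.99 for their pairs, and of 0.88 to 0.96 over the 5 mice other than WT mouse 2. Those 5 mice include WT mouse 3, which had the lowest value of all 3 miRNAs, and r without it was not computed. These correlations describe arrays that share a normalization, and miR-133a and miR-133b nearly share a sequence.

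The skeletal muscle miRNA miR-206-3p was present in a single saline lung. Its log2 intensity was 6.29, 10.32 and 6.14 in WT mice 1, 2 and 3, and 6.15, 6.12 and 6.44 in the WT-BLM mice. Only WT mouse 2 was above the detection limit, and the other 5 mice were below theirs. Both spots agreed in WT mouse 2, at 1529 and 1670 above the empty spots, while the means in the other mice lay between -7.44 and 16.8. Set against the highest value that the lowest detected signal or the probe itself allows on the other arrays, WT mouse 2 was at least 5.83-fold higher. With the WT mean over all 3 mice, 1 of them detected, WT lungs were at least 1.82-fold higher than WT-BLM lungs, a bound that rests on WT mouse 2 alone. The probe was not tested in limma because of the filter, and the exact two-sided permutation p was 0.60. In the table of intensities that the authors normalized, miR-206-3p read 10, 1180 and 2 for saline and 2, 2 and 17 for bleomycin, in the order of mice 1 to 3. Binding of miR-1a-3p to the miR-206-3p probe was not tested.

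Among the 275 tested miRNAs the excess of WT mouse 2 over the highest of the other 5 mice was 1.73 on the log2 scale for miR-133b-3p, 1.61 for miR-1a-3p and 1.52 for miR-133a-3p. A measured excess of more than 1 was found for 4 of the 275 (1.45%), these 3 muscle miRNAs and miR-205-5p at 1.32. That of miR-205-5p is no lower bound, since it was not detected in WT mouse 3. The lowest detected signal there was 7.77, against 8.06 for miR-205-5p in WT mouse 2. For miR-206-3p, which was not among the tested probes, the excess of WT mouse 2 was at least 2.54. Taken in the same way, each of the other 5 mice had such an excess for 0 to 2 of the tested miRNAs, none of them a muscle miRNA. Over all 1963 probes, where differences from arrays without a detected signal are bounds at most, the excess was more than 1 for 7 probes in WT mouse 2, of which 4 were muscle miRNAs, and for 3 to 30 probes in each of the other 5 mice, none of them a muscle miRNA. The largest measured difference of any single mouse was 4.28, for miR-190a-3p in WT mouse 3. At any size, WT mouse 2 was the highest mouse for all 3 tested muscle miRNAs and for 38 of the 275 tested probes (13.8%). This comparison was made after the values of WT mouse 2 had been seen and is a description.

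**Figure D4:**
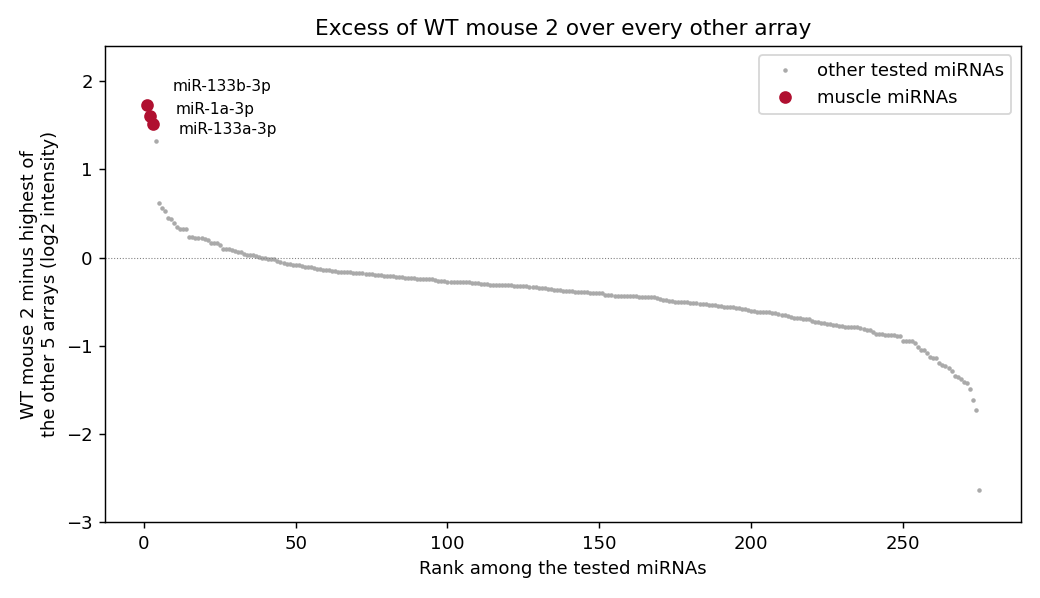
Log2 intensity of WT mouse 2 minus the highest of the other 5 arrays (y axis) for the 275 tested miRNAs in order of that difference (x axis), with the 3 tested muscle miRNAs in red. The points of miR-133b-3p, miR-1a-3p and miR-133a-3p are at 1.73, 1.61 and 1.52, and 38 of the 275 are above 0.

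The heart and slow muscle members gave signals at or near background. For miR-208b-3p, encoded within Myh7, the log2 intensity was 6.49, 6.66 and 6.29 in the WT mice, against 6.57, 6.85 and 6.90 in the WT-BLM mice. It was detected on no WT array and on 2 of 3 WT-BLM arrays, but these counts depend on limits that differed between arrays. WT mice 1 and 2, at 29.99 and 31.7 above the empty spots, would pass the limit of 24.04 for WT-BLM mouse 3. WT-BLM mouse 3, at 45.1 with 1 spot at 24.97, would not pass the limit of 54.4 for WT mouse 2. WT-BLM mouse 2, at 64.5, was above both of these limits. The groups overlapped in log2 intensity because WT mouse 2 was above WT-BLM mouse 1. The lowest detected signal averaged 6.99 over the WT arrays, raised by 7.77 for WT mouse 3, and this was above the WT-BLM mean of 6.77, so that no fold is given. In the table normalized by the authors, miR-208b-3p read 25, 31 and 16 for saline and 35, 37 and 56 for bleomycin. There the groups did not overlap (exact permutation test, two-sided p = 0.10), but the study picked this miRNA on these same mice, so that the separation is a description. On those values the groups also did not overlap for 13 of the 275 tested probes (4.73%), which do not include miR-208b-3p. They did not overlap for miR-499-5p either, which was detected in no mouse.

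The probe for miR-499-5p, encoded within Myh7b, was not above its detection limit in any mouse, with log2 intensities of 5.99, 6.06 and 6.03 in the WT mice, against 6.10, 6.13 and 6.43 in the WT-BLM mice. These values lie within the background, and no fold is given. The table normalized by the authors lists it at 0 in all 3 WT mice and at 3, 8 and 2 in the WT-BLM mice. Thus miR-499-5p was not detectable at this sensitivity, including in WT mouse 2, where miR-1a-3p was highest.

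The array held 12 further probes for the other arms and the close relatives of the members, and 8 of them were detected in no mouse. Of the other 4, 2 passed the filter, miR-133b-5p and miR-208a-3p, and neither had an adjusted or unadjusted p under 0.05 in limma. The log2 intensity of miR-208a-3p, which is encoded within Myh6, the main myosin heavy chain gene of the adult mouse heart, was 7.18, 6.91 and 6.47 in the WT mice, against 6.65, 6.96 and 6.63 in the WT-BLM mice. It was detected in WT mouse 1 and in WT-BLM mice 2 and 3, and in WT mouse 2 it was just below the limit, at 53.7 above the empty spots where the limit was 54.4.

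The other arm of miR-133b behaved differently from the member. The log2 intensity of miR-133b-5p was 11.20, 11.43 and 7.35 in the WT mice, against 9.24, 10.66 and 10.26 in the WT-BLM mice. WT mouse 2 was only 1.17-fold above the next mouse, in contrast to 3.31-fold for miR-133b-3p, and r between the arms was 0.74 over the 6 mice. The 5p probe was not detected in WT mouse 3, as for the 3p probe. The probe for miR-133a-5p was detected in WT mouse 2 only, at 54.8 above the empty spots where the limit was 54.4. That for miR-1a-1-5p was detected in WT mouse 2 and in WT-BLM mouse 3, at 89.5 and 27.2. In WT-BLM mouse 3 this rested on 1 spot at 44.6, since the other, at 9.82, was below the limit of 24.04.

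The 3 tested miRNAs outside the members whose levels were most like miR-1a-3p over the 6 mice were miR-205-5p, miR-378b and miR-7683-3p, with r of 0.88, 0.86 and 0.85. For miR-133a-3p they were miR-378b, miR-205-5p and miR-378c, with r of 0.94, 0.92 and 0.91. These were the highest r of 272 candidates over only 6 mice. Over the 5 mice other than WT mouse 2, r with miR-1a-3p was 0.30 for miR-205-5p, 0.84 for miR-378b and 0.69 for miR-7683-3p. With miR-133a-3p it was then 0.99 for miR-378b, 0.70 for miR-205-5p and 0.83 for miR-378c. The probes for miR-378b and miR-378c were detected on 5 arrays each, that for miR-7683-3p on 4 and that for miR-205-5p on 3. All of them were lowest, and not detected, in WT mouse 3, where miR-133a-3p was not detected either. The r without WT mouse 3 was not computed. The miR-378 family is abundant in muscle. The log2 intensity of miR-378b was 8.46, 8.69 and 7.55 in the WT mice, against 8.37, 8.04 and 8.04 in the WT-BLM mice, so that its range was far narrower than that of miR-1a-3p.

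miR-205-5p, a miRNA of stratified and basal epithelium, was at 6.62, 8.06 and 6.25 in the WT mice, against 6.73, 6.73 and 6.70 in the WT-BLM mice. The probe was detected in WT mouse 2 and in WT-BLM mice 2 and 3 only. WT mouse 2 again had the highest value, 2.50-fold above the next. In WT mouse 3 the lowest detected signal was 7.77, so that the level there is known only to lie below that. miR-203-3p, another miRNA of stratified epithelium, was chosen after its values were seen and was at 8.81, 9.63 and 8.32 in the WT mice, against 8.37, 8.66 and 9.004 in the WT-BLM mice. WT mouse 2 was 1.54-fold above the next. These epithelial miRNAs were, like the 3 tested muscle miRNAs, highest in WT mouse 2, and their part in the result was not tested. Of the 8 miRNAs in the epithelial list, WT mouse 2 was the highest for none. Over that list its median difference from the median of the other 5 mice was -0.48.

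Lists for other cell types were set beside the muscle miRNAs. Of 4 smooth muscle miRNAs, which mark vessel and airway walls, 3 were tested, 2 were lower and 1 higher in WT-BLM lungs with a median difference of -0.05, and WT mouse 2 was the highest for none. The smooth muscle miRNA miR-143-3p was 14.01, 13.53 and 13.90 in the WT mice, against 11.64, 13.55 and 13.59 in the WT-BLM mice, a difference of -0.88 (standard error 0.52, adjusted p = 1 in limma) with the low value in WT-BLM mouse 1. Its partner miR-145a-5p was 13.43, 13.35 and 13.38 in the WT mice, against 13.44, 13.24 and 13.31 in the WT-BLM mice, and the tested miR-145a-3p differed by 0.33. The log2 of the summed intensity of the list was 14.49 to 14.77 in WT and 13.87 to 14.51 in WT-BLM lungs. Of 8 miRNAs enriched in muscle but also made elsewhere, 7 were on the array, 4 were tested, 3 were lower and 1 higher, with a median of -0.20. WT mouse 2 was the highest for 1 of these 4, miR-378a-3p, at 9.03 against 7.495 to 8.63 in the other mice. For miR-30e-3p, miR-22-3p and miR-486a-5p, WT mouse 2 minus the highest other mouse was -0.21, -0.59 and -0.68 on the log2 scale.

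The 3 red cell miRNAs were all tested, with 1 lower and 2 higher in WT-BLM lungs and a median of 0.03. The 4 leukocyte miRNAs had a median of 0.08 with 1 lower and 3 higher, and the 2 endothelial miRNAs a median of 0.49 with both higher. The 8 epithelial miRNAs had a median of 0.10 with 3 lower and 5 higher. In these lists no miRNA had an unadjusted p under 0.05 in limma, and WT mouse 2 was the highest mouse for 1 of the 17 miRNAs, the leukocyte miRNA miR-142a-3p, at 10.51 against 10.29 in the next. Of 6 miRNAs typical of liver, brain or pancreas, 3 were detected in no mouse and 1, miR-375-3p, was tested.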

How the data were processed

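The 6 arrays were grouped by the sample labels. Per the file headers, each spot has its raw median intensity and the spread within the spot, and the authors also deposited a table of intensities normalized by the authors, rounded to whole numbers, on a linear scale. Its method is not given in the sources used here. Its median over miRNA probes was 3 or 4 on every array, and its log2 values had r of 0.974 to 0.996 with those computed here over 116 probes detected on all arrays. The array service added a poly(A) tail, ligated a tag and stained it with Cy3.

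The raw values went through limma 3.58.1 (R 4.3.3) by normexp correction on all spots (offset 50, which shrinks differences of dim probes), removal of control spots, quantile normalization of log2 intensities and averaging of both spots of a probe. The 275 detected probes were fitted with lmFit and eBayes, unpaired, with Benjamini-Hochberg adjustment over all 275. The steps were also run on simulated data. There the spread of each probe was capped below that of the tested muscle miRNAs in WT lungs, so that run does not cover their spread. The miRNAs named are the 6 members, every other arm or close relative, fixed lists, and the 3 tested probes most correlated with miR-1a-3p and with miR-133a-3p. Members and lists were chosen with earlier results of these data known. The labels do not state that mice were independent litters, so p-values measure the spread between these mice. The number of arrays limits the precision.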

Additional observations from a re-analysis of the deposited data

How the results depend on the processing

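The 24 alternatives run were all set out with the design, and slide or scan as a block was not run, as no file names one. Under none of the 24 did limma or the methods' t-test give a muscle miRNA an adjusted p under 0.05 (lowest 0.38). The difference of miR-1a-3p kept its sign throughout, between -2.10 and -1.12 over the settings with all mice and between -2.11 and -0.43 with each mouse left out. Leaving out each mouse in turn gave -1.49 to 0.16 for miR-133a-3p and -1.67 to 0.025 for miR-133b-3p, and the sign turned only without WT mouse 2. With all mice these 2 differences went from -1.45 and -1.62 with array weights to -0.11 and -0.33 with the empty spots subtracted. They were -1.47 and -1.63 with discordant spots left out, which leaves out WT mouse 3 for both. The difference of miR-133a-3p also turned, to 1.57, on the authors' values with a pseudocount of 1, since that table lists it at 0 in WT mouse 3. At an unadjusted p under 0.05 there were 0 of 3 muscle miRNAs (5 of all 275), but 3 with scaling to the 75th percentile of the probes detected on all arrays (8 of 275), 3 with array weights (14 of 275) and 2 with discordant spots left out (4 of 275), which drops WT mouse 3 for miR-133a-3p and miR-133b-3p. With each mouse left out in turn it was 0 to 3, with all 3 reached without WT mouse 3, against 1 to 20 of the 275, with the 20 in the same setting. The scaling also moved the median difference of all 275 miRNAs from 0.04 to -0.22. Groups without overlap numbered 0 (13 of all 275), but 1 with the brighter spot (miR-133b-3p, 15 of 275) and 1 without a filter (miR-499-5p, which was detected in no mouse, 170 of 1963). With each mouse left out in turn they numbered 0 to 3, again 3 without WT mouse 3, against 28 to 59 of the 275, with the 59 in that setting. With detection required on all 6 arrays, miR-133a-3p and miR-133b-3p left the test. The cause of these changes beyond the left-out mice was not tested.

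No source used here states that mice with the same number belong together. The deviations from the group means of equally numbered mice had r of 0.16, 0.03 and 0.07. With so few mice in a group, these values cannot decide whether the samples are paired. With the replicate block limma gave differences of -1.26, -0.63 and -0.82 for miR-1a-3p, miR-133a-3p and miR-133b-3p with an adjusted p of 1, and 8 in place of 5 of the 275 miRNAs had an unadjusted p under 0.05. The methods' paired t-test gave 9 of the 275 and none of the muscle miRNAs. The high detection limit for WT mouse 3 and WT-BLM mouse 1 sets what the absence of signal can mean there.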
